A study of Homo sapiens with 6 samples.

Results

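The genes described here are the mouse adult haemoglobin genes Hba-a1, Hba-a2, Hbb-bs and Hbb-bt, and Alas2, measured in the RNA of human tumours grown in mice. They were taken as the rows with the Ensembl IDs ENSMUSG00000069919, ENSMUSG00000069917, ENSMUSG00000052305, ENSMUSG00000073940 and ENSMUSG00000025270, in that order, and all 5 were found among 77134 rows. The tumours came from A549, a human lung adenocarcinoma line, grown under the skin of athymic BALB/c nude mice. Before transplantation the 3 control tumours' cells had been stably infected with the lentivirus pLV-CMV-EGFP-Neo and the 3 overexpression tumours' cells with pLV-CMV-HIF1A-AS3-EGFP-Neo. Both vectors thus carry a green fluorescent protein and a neomycin resistance gene, and the second adds HIF1A-AS3, a long RNA transcribed antisense to human HIF1A. The vectors, with a CMV promoter, were put into the human cells, so the mouse genes belong to host cells, which were not the cells infected. The time of growth, the age of the mice and whether the infected cells were a single clone are not given in the sources used, nor whether tumours of 1 group grew in separate mice. The p-values below therefore set a group difference only against the spread between these tumours, which may in part be technical. If the tumours were not independent, the p-values could be too small.

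Haemoglobin is a tetramer of alpha and beta globin chains, each of which holds a haem group. In adult mice the alpha chains come from Hba-a1 and Hba-a2, a duplicated pair with nearly identical coding sequence, and the beta chains from a second pair of similar genes. Alas2 encodes the erythroid form of 5-aminolevulinate synthase, the first enzyme of haem synthesis. These RNAs are made in red cell precursors and persist in reticulocytes, the young red cells of the circulation, so in a tumour without red cell production they are commonly read as a measure of how much blood the tissue sample held. BALB/c mice are known to carry the d form of the beta globin locus, while Hbb-bs and Hbb-bt name genes of the s form in the reference strain; the counts below are of reads assigned to those reference genes.

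The 6 libraries held 4167784 to 4769157 estimated counts on mouse genes. Overexpression replicate 1 stood apart: it had the largest total, 4769157, yet fewer detected genes (1 count or more), 17356, than the 18753 to 19010 of the others. Its scaling factor from TMM, a method that corrects for a few genes taking many counts, was 0.742 against 1.02 to 1.10. CPM below are counts scaled to the size of the TMM-scaled library, while a share is a percentage of the library's own total. Both are relative to counts on mouse genes, so they do not give the blood content of the whole tumour. Mouse counts can include human RNA similar enough to be assigned to a mouse gene. In bulk RNA, fewer red cells and less RNA per red cell cannot be told apart.

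Haemoglobin RNA was detected in every tumour, as a very small part of the mouse counts, and its amount differed from tumour to tumour more than between the groups. The 4 globin genes together held 1187, 1964 and 699 estimated counts in controls 1, 2 and 3, and 2877, 669.9 and 175 in overexpression replicates 1, 2 and 3. As a share of the library this was 0.0280% in control replicate 1 (95% exact Clopper-Pearson interval 0.0265 to 0.0297). It was 0.0471% in control replicate 2 (0.0451 to 0.0493) and 0.0164% in control replicate 3 (0.0152 to 0.0177). In overexpression replicates 1, 2 and 3 the share was 0.0603% (0.0581 to 0.0626), 0.0144% (0.0133 to 0.0155) and 0.00410% (0.00351 to 0.00475). Both the tumour with the most and the tumour with the least haemoglobin RNA were thus overexpression tumours, and all 3 controls lay between them. The intervals of control replicate 3 and overexpression replicate 2 touched, and those of all other libraries were apart. Reads are not independent molecules, so all such intervals cover counting error only.

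**Figure D1:**
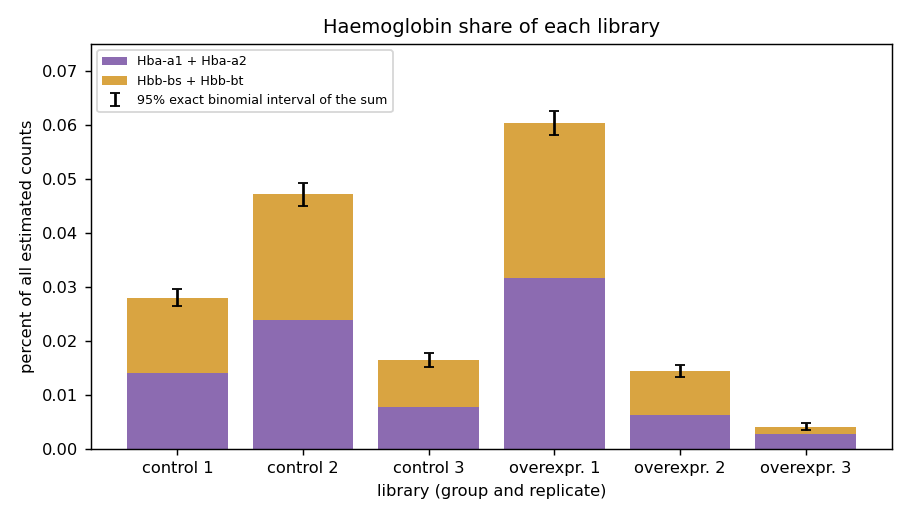
Bars give the percentage of all estimated counts on mouse genes held by the summed Hba genes (lower part) and the summed Hbb genes (upper part) in each of the 6 libraries, with the 95% exact binomial interval of the sum. Overexpression replicate 1 is highest at 0.0603% and overexpression replicate 3 lowest at 0.00410%, with the 3 controls between 0.0164% and 0.0471%.

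The mean share was 0.0305% ± 0.0155 (SD, n = 3) for control tumours and 0.0263% ± 0.0299 (SD, n = 3) for the overexpression group. The difference was smaller than the spread in either group (two-sided exact permutation test, p = 0.8, Benjamini-Hochberg adjusted p = 0.9 over 5 within-library measures). With 20 possible assignments of the tumours this test cannot give a p below 0.1. Scaled by TMM, which raises overexpression replicate 1, the summed level was 284 ± 149 CPM (SD, n = 3) for control tumours and 333 ± 422 CPM (SD, n = 3) for the overexpression group. The sign of the group difference therefore turned with the denominator alone.

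The alpha genes were read first one by one and then as a sum, since reads common to near-identical genes are divided between them by estimation. Hba-a1 had 251, 472 and 156 estimated counts in controls 1, 2 and 3 and 692, 127 and 54.3 in overexpression replicates 1, 2 and 3. Hba-a2 had 342, 521 and 174 in controls and 818, 168 and 60.7 in overexpression tumours, in the same order of replicates. For both genes overexpression replicate 1 was highest, control replicate 2 next and overexpression replicate 3 lowest, and the control values lay inside the range of the overexpression values. No Hba-a1 or Hba-a2 estimate was a whole number in any of the 6 libraries (tolerance 0.001), whereas their sum was whole in 5 of 6. Reads were therefore split between the 2 genes in every library, and the sum is the better defined quantity. Summed Hba reached 128, 225 and 70.9 CPM in controls 1, 2 and 3 and 429, 62.2 and 26.5 CPM in overexpression replicates 1, 2 and 3.

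The beta genes, too, were highest in overexpression replicate 1 and next in control replicates 2 and 1. Hbb-bs was at 72.8 CPM in overexpression replicate 2 and 70.9 CPM in control replicate 3, too close to be ranked. As a share of the library total, summed Hbb was 0.00805% (95% exact interval 0.00726 to 0.00891) in overexpression replicate 2. In control replicate 3 it was 0.00866% (0.00780 to 0.00959), so the intervals overlapped. Hbb-bs had 554, 910.4 and 330 estimated counts in controls 1, 2 and 3 and 1251, 345 and 56.2 in overexpression replicates 1, 2 and 3. Hbb-bt, the other gene of the pair, had 40.1, 60.5 and 39 in controls and 116, 29.5 and 3.79 in overexpression tumours. Overexpression replicate 3 was the lowest library for both, and its Hbb-bt estimate was close to the 3 counts that a library at 0 could still hold. Summed Hbb reached 128, 220 and 79.3 CPM in controls 1, 2 and 3 and 388, 79.0 and 13.8 CPM in overexpression replicates 1, 2 and 3. The sum was whole in 4 of 6 libraries, and each of its parts in 1 of 6. Counts here are not divided by transcript length, so levels of alpha and beta genes are not ranked against each other.

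Alas2 was rare in all tumours. It had 6, 12.9 and 5 estimated counts in controls 1, 2 and 3 and 19.8, 8 and 2 in overexpression replicates 1, 2 and 3, or 1.30, 2.92 and 1.07 CPM and 5.64, 1.69 and 0.46 CPM. The highest, the second highest and the lowest library were those of the globin genes, but overexpression replicate 2 stood above control replicates 1 and 3. At counts this small neighbours in the order cannot be told apart. Overexpression replicate 3, with 2 counts, lay under the level of 3 counts, 0.69 CPM in that library.

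**Figure D2:**
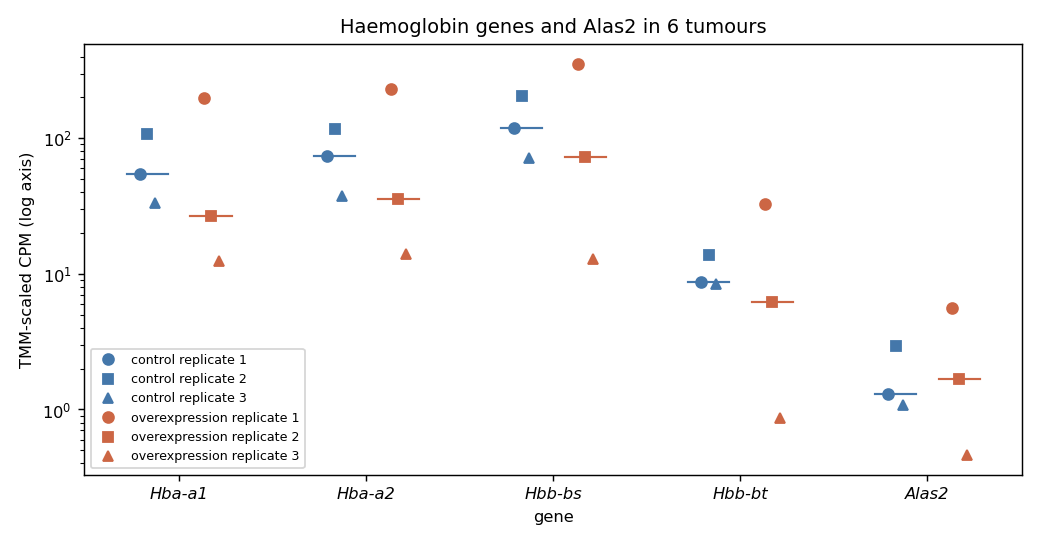
Points give TMM-scaled CPM on a log axis for each gene in each library (colour for the group, symbol for the replicate number), and the short line is the group median. In all 5 genes overexpression replicate 1 is the top point and overexpression replicate 3 the bottom point, with the controls between them.

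The distance between the tumours at the ends of this order was large for every gene. From overexpression replicate 3 to overexpression replicate 1, both of the same group, summed Hba differed 16.2-fold in CPM (95% exact counting interval 13.4 to 19.8) and summed Hbb 28.1-fold (21.7 to 37.1). By library totals these ratios were 11.8 and 20.4. For all globin genes together the ratio was 20.3 (17.4 to 23.8) by TMM-scaled CPM and 14.7 by library totals. For Alas2 it was 12.3 by TMM-scaled CPM and 8.89 by library totals. The interval of the former was 3.00 to 109 because it rests on 20 against 2 counts. Among the 3 controls the highest library exceeded the lowest 2.96-fold for all globin genes together.

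The range over libraries was wide compared with other mouse genes. Over all 6 libraries the highest and the lowest log2 CPM of Hba-a1, Hba-a2, Hbb-bs and Hbb-bt were 3.94, 4.01, 4.74 and 4.60 apart, against a median of 0.92 over the 12637 genes that passed the filter on low counts. A smaller range was found in 97.9%, 98.0%, 98.9% and 98.7% of genes. The SD of log2 CPM of the summed haemoglobin genes was 0.78 among controls, where the median gene had 0.20, and 2.17 among overexpression tumours, where the median gene had 0.37. It was larger than the SD of 95.4% of genes among controls and of 98.8% among overexpression tumours. Hbb-bt was the exception among controls, with an SD of 0.37 that exceeded 79.2% of genes. Whether the 2 groups differ in this spread was not tested.

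**Figure D3:**
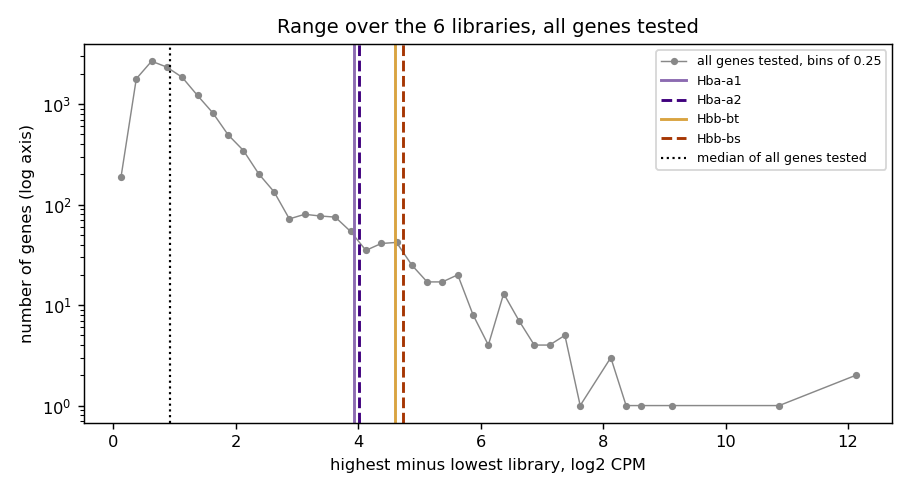
Grey points count the genes tested (log axis) by the difference between their highest and lowest library in log2 CPM, vertical lines mark the 4 globin genes that passed the filter, and the dotted line marks the median gene. The globin genes lie between 3.94 and 4.74, far to the right of the median at 0.92.

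The balance between genes within a library moved much less than the total. Hba-a1 made up 42.3%, 47.6% and 47.3% of summed Hba counts in controls 1, 2 and 3 and 45.9%, 43.1% and 47.2% in overexpression replicates 1, 2 and 3. It averaged 45.7% ± 2.95 (SD, n = 3) over controls and 45.4% ± 2.11 (SD, n = 3) over the others, with p = 0.8 in the two-sided exact permutation test and an adjusted p of 0.9. Hbb-bs made up 93.3%, 93.8% and 89.4% of summed Hbb counts in controls 1, 2 and 3 and 91.5%, 92.1% and 93.7% in overexpression replicates 1, 2 and 3. It averaged 92.2% ± 2.37 (SD, n = 3) over controls and 92.5% ± 1.11 (SD, n = 3) over the others, at an exact permutation p of 0.9 and an adjusted p of 0.9. Across a span of haemoglobin level of 20.3-fold by TMM-scaled CPM and 14.7-fold by library totals, the share of Hba-a1 lay between 42.3% and 47.6%. That of Hbb-bs lay between 89.4% and 93.8%. As a ratio of estimated counts, Hba-a2 to Hba-a1 ran from 1.10 to 1.36, a 1.24-fold span. Hbb-bs to Hbb-bt ran from 8.46 in control replicate 3 to 15.1 in control replicate 2, a 1.78-fold span that a share near its ceiling shows as a few points. These splits rest on the estimator's division of shared reads and, for the beta genes, on assignment to reference genes of the s form. How far they are a property of the RNA was not tested.

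The part of the haemoglobin counts that came from the alpha genes lay between 44.0% and 52.5% in 5 libraries and was larger in the library with the least haemoglobin RNA. Summed Hba held 49.96%, 50.6% and 47.2% of haemoglobin counts in controls 1, 2 and 3, and 52.5% and 44.0% in overexpression replicates 1 and 2. In overexpression replicate 3 it held 65.7% (115 of 175 counts, 95% exact interval 58.2 to 72.7), above the highest upper bound of the other libraries, 54.3%. Overexpression replicate 2 lay at the other end, with an interval of 40.2 to 47.9 that met neither the 50.6 to 54.3 of overexpression replicate 1 nor the 48.3 to 52.8 of control replicate 2. The log2 ratio of summed Hba to summed Hbb was -0.04 ± 0.10 (SD, n = 3) for control tumours and 0.25 ± 0.65 (SD, n = 3) for the overexpression group (two-sided exact permutation p = 0.7, adjusted p = 0.9). Without overexpression replicate 3 the difference between groups turned from 0.29 to -0.06.

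Relative to haemoglobin, Alas2 had 5.06, 6.57 and 7.15 counts per 1000 globin counts in controls 1, 2 and 3. It had 6.90, 11.9 and 11.4 in overexpression replicates 1, 2 and 3. The intervals of all 6 libraries overlapped, the widest being 1.39 to 40.7 in overexpression replicate 3. The log2 ratio, with 0.5 added to both counts, was -7.23 ± 0.26 (SD, n = 3) for control tumours and -6.53 ± 0.54 (SD, n = 3) for the overexpression group. The difference of 0.71 had a two-sided exact permutation p of 0.2 and an adjusted p of 0.9, in a test that cannot go below 0.1 with 3 tumours against 3.

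**Figure D4:**
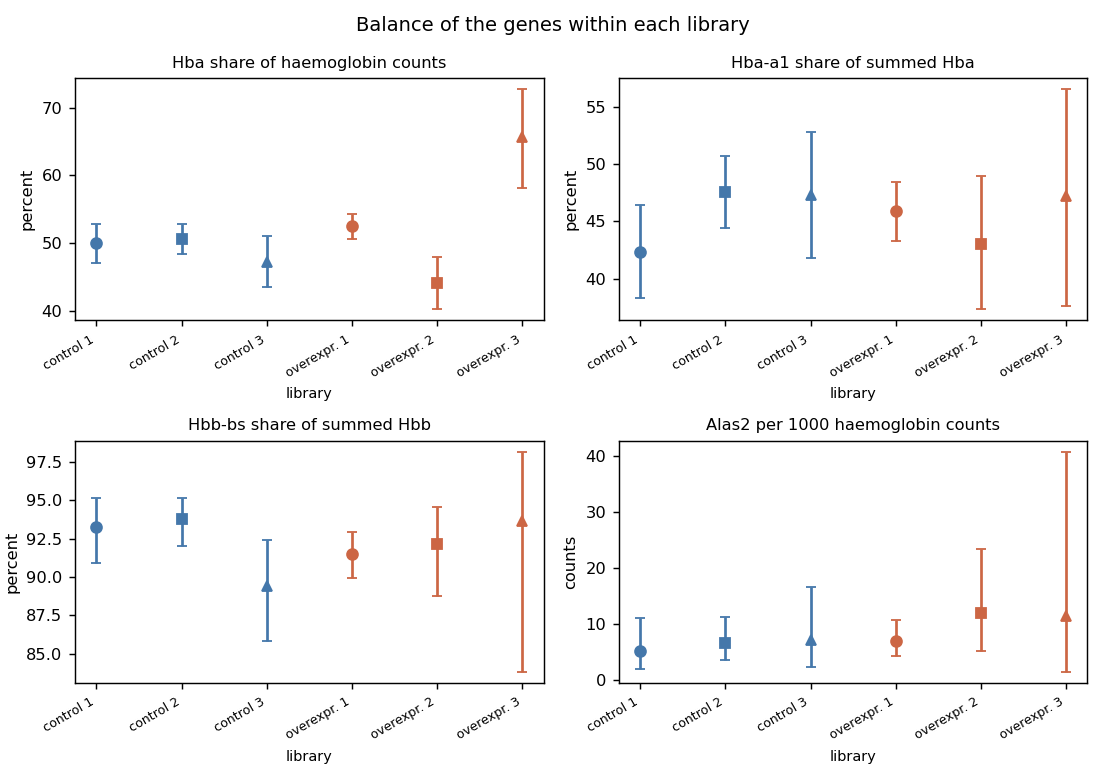
The 4 panels plot, for each library, the percentage of haemoglobin counts from the Hba genes, of summed Hba from Hba-a1 and of summed Hbb from Hbb-bs, and Alas2 counts per 1000 haemoglobin counts, with 95% exact binomial intervals; blue is control and orange overexpression, and the axes do not start at 0 in the 3 percentage panels. Only the Hba share of overexpression replicate 3, at 65.7%, has an interval apart from those of all other libraries.

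No member passed the test between overexpression and control tumours. This comparison, fitted over all genes with edgeR's quasi-likelihood test, asked whether HIF1A-AS3 in the tumour cells went with a different amount of host blood RNA. Of 12637 genes tested, 2 passed (0.0158%). Of the 5 members 4 passed the filter on low counts and 0 of these 4 were called, nor did any have an unadjusted p under 0.05 in edgeR. In 0 of the 5 members did the groups fail to overlap, where 13.2% of all genes tested did not overlap. Alas2 reached the filter's cutoff of 2.34 CPM in 2 libraries and the filter asks for 3, so its values come from the same fit without the filter.

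The fitted log2 fold changes were 0.27 for Hba-a1, 0.29 for Hba-a2, 0.15 for Hbb-bs and 0.36 for Hbb-bt, with a median of 0.28 over these 4 against 0.01 over all genes. Their standard errors were 0.94 to 0.98, where the median gene had 0.28. Adjusted p values in edgeR were 0.951, 0.946, 0.974 and 0.933. Alas2 stood at 0.53 (standard error 0.74, edgeR adjusted p = 0.821). For the summed haemoglobin genes, entered as a single row, it was 0.23 (standard error 0.96, edgeR adjusted p = 0.959). The 95% interval of that difference ran from 0.246-fold to 5.57-fold, so a rise or fall of several times in the mean haemoglobin level would not have been seen in 3 tumours against 3. The summed Hba and summed Hbb rows gave 0.28 and 0.17, with adjusted p values of 0.947 and 0.971 in edgeR.

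The sign of these differences hung on single tumours, on the scaling and on the model fitted. Without overexpression replicate 1 the log2 fold change of the summed haemoglobin genes was -1.67 (95% interval -3.30 to -0.05), at edgeR p values of 0.0453 unadjusted and 0.999 adjusted. Hba-a1 and Hba-a2 were then at -1.75 and -1.65, with unadjusted edgeR p values of 0.024 and 0.0324 and an adjusted p of 0.999 for each. Hbb-bs and Hbb-bt were at -1.65 and -1.54 (unadjusted edgeR p of 0.0781 and 0.0614), and Alas2 at -0.70 (0.394). None passed the threshold on adjusted p. Without control replicate 3 the summed value was -0.07, and without any other control it stayed above 0. Without overexpression replicate 3, the tumour at the low end, the summed value was 0.76 (adjusted p 0.788 in edgeR). Scaling by library totals gave -0.22, at an edgeR adjusted p of 0.941. With TMM kept, limma-voom gave -0.61 and a block by replicate number in edgeR -0.73, at adjusted p values of 0.859 and 0.946. The medians of the groups also lay the other way from the means, at 257 CPM for controls against 141 CPM for the overexpression group.

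**Figure D5:**
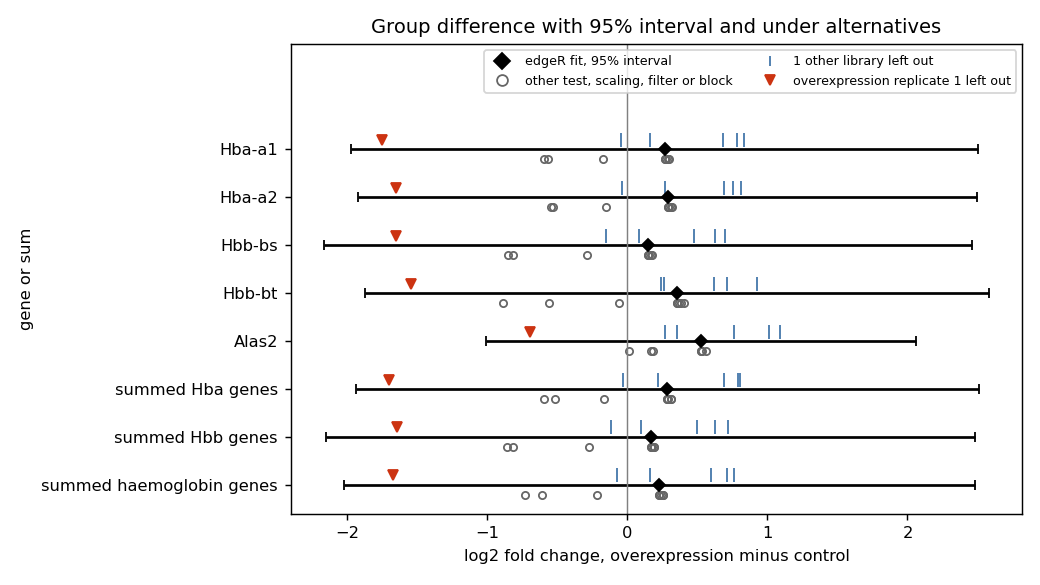
Black diamonds give the log2 fold change of overexpression against control for each gene and sum with its 95% interval from edgeR, grey circles other tests, scalings, filters or the replicate block, blue ticks the fits without 1 library, and red triangles the fit without overexpression replicate 1. Each interval spans 0, and each red triangle lies below 0, from -1.75 for Hba-a1 to -0.70 for Alas2.

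Other mouse genes whose levels went up and down with haemoglobin were sought by Pearson's r of log2 CPM with the summed globin genes over the 6 libraries. Among 12633 genes compared, the highest r belonged to ENSMUSG00000018169.13 at 0.988 (Spearman's rho 1), followed by ENSMUSG00000037095.9 at 0.987 (rho 0.943). The first ran from 8.51 CPM in overexpression replicate 3 to 14.5 CPM in overexpression replicate 1, a far smaller span than that of the globin genes. The lowest r belonged to ENSMUSG00000035798.15 at -0.994, with 66.9 CPM in overexpression replicate 3 and 44.3 CPM in overexpression replicate 1. These are the extremes of many genes over 6 points that share library depth and scaling, so they carry no p. The deposited table pairs no ID with a symbol, and these genes are given by ID only.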

How the data were processed

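Total RNA of 6 tumours was sequenced as 1 library each, per the labels' protocols. The authors deposited 1 table of estimated counts per gene, not normalized, with 1 column per library, per the file headers. All columns matched a tumour by name (0 left over). The name of the table points to salmon, and the submitters' processing notes name edgeR, DESeq2, featureCounts 2.0.6, HISAT2 2.2.1, Trimmomatic 0.39 and the build mm10, with no role for any. The member names come with the rule that chose them. Other mouse symbols, gene positions, transcript lengths and sequences were not used here, so lists of other red cell, platelet, vessel and leukocyte genes were not analysed.

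Members, measures and tests were chosen with earlier results of these data known. All 5 members are named, and the genes most like them were taken by the highest and lowest r, with at most 2 each way because they have no symbol. Estimated counts were rounded and fitted in R 4.3.3 with edgeR 4.0.16 (filterByExpr with a minimum count of 10, TMM, robust quasi-likelihood test, group only, Benjamini-Hochberg adjusted p under 0.05). Alas2 failed the filter and was fitted over the 25492 rows above 0, where 14 genes passed (0.0549%). Summed rows replaced their parts. Standard errors were taken from the fold change and F. Log2 CPM used a prior count of 2. Within-library measures were compared by two-sided exact permutation over 20 assignments. The scripts were tested on simulated data. The closest libraries, control replicates 1 and 3, had a chi-square of 3.88 per gene, where sampling noise alone gives about 1. No library was thus another one sequenced again. Separate libraries made from the same tumour would also exceed 1, so this check cannot tell whether any were. Alternatives were DESeq2 1.42.0, limma-voom (limma 3.58.1), other scalings, no filter, non-robust fitting, a replicate block and leaving out each library.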

Additional observations from a re-analysis of the deposited data

How the results depend on the processing

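No member or sum passed the threshold under any alternative, while the sign of its difference often turned. The log2 fold changes of Hba-a1, Hba-a2, Hbb-bs, Hbb-bt, summed Hba, summed Hbb and all globin genes summed were -0.56, -0.53, -0.81, -0.88, -0.52, -0.81 and -0.61 with limma-voom. With library totals only, which moved the median of all genes to -0.215, they were -0.18, -0.15, -0.29, -0.059, -0.16, -0.27 and -0.22. With a replicate block they were -0.59, -0.55, -0.85, -0.56, -0.59, -0.86 and -0.73, at adjusted p values of 0.946 to 0.959 in edgeR. Alas2, at 0.18 with the block, turned only without overexpression replicate 1. Fits without 1 library ran from -1.75 to 0.84, -1.65 to 0.81, -1.65 to 0.70, -1.54 to 0.92, -1.70 to 0.80, -1.64 to 0.72 and -1.67 to 0.76 for the same 7 in order, and -0.70 to 1.09 for Alas2. DESeq2, DESeq2 size factors, totals and TMM without the members, non-robust fitting and, except for Alas2, no filter left every sign positive. The cause was not tested.

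The difference in haemoglobin share, -0.00424 percentage points, became 0.00492 over the TMM-scaled library and 0.00450 over a total without the 500 most abundant other genes, and ran from -0.0213 to 0.00685 with 1 library left out. The same ranges were -0.0575 to 0.585 for the log2 ratio of Hba to Hbb, -2.07 to 0.792 points for the share of Hba-a1, -1.06 to 1.11 points for that of Hbb-bs, and 0.511 to 1.02 for the log2 ratio of Alas2 to haemoglobin. Pairing tumours by number in an exact sign-flip test gave p values of 0.25 to 1, where 0.25 is the smallest possible.

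Of all genes, 2 passed in edgeR, 28 with DESeq2, 7 with limma-voom, 4 with library totals only, 14 without the filter, 0 with the replicate block (414 at an unadjusted p under 0.05), and 0 to 14 with 1 library left out. Deviations of same-numbered tumours from their group means correlated at -0.09, -0.34 and -0.10 across genes, against -0.16 to 0.25 for tumours of different number. These correlations depend on each other, since deviations within a group sum to 0. The labels do not say that the numbers pair the tumours, and they were not taken to do so. Alas2, at 2 to 20 counts, has wide counting intervals. For the globin genes the spread between tumours exceeds the counting error.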
